A study of Mus musculus with 4 samples.

Results

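The miR-15/16 family is a group of 6 mouse miRNAs with the same seed, mmu-miR-15a-5p, mmu-miR-15b-5p, mmu-miR-16-5p, mmu-miR-195a-5p, mmu-miR-322-5p and mmu-miR-497a-5p (written without the species prefix mmu from here on), out of 1881 miRNAs on the array. Members were taken by name, and all 6 were on each of the 4 arrays. The RNA came from the exosome fraction, the vesicles pelleted by ultracentrifugation from culture medium, of 3T3-L1 cells, an established mouse line of fibroblast-like preadipocytes. Cells of all groups were kept in medium with exosome-depleted serum. D0 cells had received growth medium only, whereas D4, D12 and D16 cells had received differentiation medium with insulin, dexamethasone and 1-methyl-3-isobutylxanthine, followed by insulin alone until collection on that day. Material from independent experiments was pooled, and 1 array was run per day. The differences between days could therefore not be tested against the spread of replicates, and they are given without p-values. The error printed with each signal is the one given by the scanner software for 1 array only. This error did not follow the measured spread of spots. For the brighter probe of miR-16-5p the signal was 9.81 times its error on D12 and 9.70 times on D16. The coefficient of variation between its spots was 3.13% and 9.91% on these days.

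A miRNA recognises messenger RNAs mainly through its seed, bases 2 to 8 from the 5′ end, so that miRNAs with the same seed can pair with the same sites. The miR-15/16 family is known for repressing genes of the cell cycle, such as cyclins D1 and E1, and the survival gene Bcl2. Its members are made from several gene clusters. MiR-15a with miR-16-1, miR-15b with miR-16-2, and miR-497a with miR-195a each come from a common primary transcript, and miR-322, the rodent counterpart of human miR-424, lies with miR-503 on the X chromosome. When 3T3-L1 cells are induced, they divide again before they leave the cell cycle and accumulate lipid.

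The mature sequences are shown because they define the family, and because members differ from each other outside the seed, at base 1 and after base 8. They are given 5′ to 3′ from RefSeq (GRCm38.p6), with bases 2 to 8 in capitals.
miR-15a-5p: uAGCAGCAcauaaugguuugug
miR-15b-5p: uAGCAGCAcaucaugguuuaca
miR-16-5p: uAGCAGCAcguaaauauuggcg
miR-195a-5p: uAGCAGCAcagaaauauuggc
miR-322-5p: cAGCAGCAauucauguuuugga
miR-497a-5p: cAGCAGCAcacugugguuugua
MiR-15a-5p is encoded at chr14:61632075-61632096 on the minus strand, inside the gene Dleu2, and miR-15b-5p at chr3:69009775-69009796 on the plus strand, inside Smc4. MiR-16-5p is made from both clusters, from Mir16-1 at chr14:61631936-61631957 in Dleu2 and from Mir16-2 at chr3:69009918-69009939 in Smc4. The array therefore cannot tell which gene its signal came from. MiR-497a-5p (chr11:70234730-70234751) and miR-195a-5p (chr11:70235062-70235082) are on the plus strand outside annotated host genes. MiR-322-5p lies at chrX:53054306-53054327 on the minus strand, inside the non-coding gene C430049B03Rik. The hairpins of a cluster are close together, 54 bases apart for Mir15a and Mir16-1, 66 for Mir15b and Mir16-2, 241 for Mir497 and Mir195a, and 200 for Mir322 and Mir503.

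MiR-16-5p and miR-195a-5p have the same base at 19 of 21 positions, and miR-15a-5p and miR-15b-5p at 18 of 22. MiR-322-5p matches miR-16-5p at 12 of 22 positions and miR-15b-5p at 16 of 22. The sequences of the array probes were not used here, so that signal shared between such near copies was not tested. Of 1679 mature mouse miRNA names in the RefSeq table, 4 others had the same bases 2 to 8, miR-195b, miR-6342, miR-6353 and miR-6419. All 4 were on the array and none was detected on any day, with no probe above 0.598 times its error. MiR-195b shares 18 of 21 positions with miR-195a-5p.

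All signals are total gene signals in the linear units of the scanner, with background subtracted and without scaling between arrays. The total includes an effective spot size set by the software, 0.6 on D0 and D16, 0.780 on D4 and 0.760 on D12. Each member had 2 probes with 15 spots each, and the software counted a probe as detected when its signal was over 3 times its error. Of the 6 members, 3 were detected on D0, 5 on D4 and 6 at both D12 and D16. Of all 1881 miRNAs on the array, 329 were detected on D0, 426 on D4, 406 on D12 and 380 on D16. The members made up a small part of the summed signal. They made up 0.265% of the summed signal of detected miRNAs on D0, 1.13% on D4, 2.09% on D12 and 1.86% on D16. These shares describe brightness and not molecules, since probes differ in efficiency. Fewer vesicles and less of a miRNA per vesicle cannot be told apart in such a bulk measurement.

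**Figure D1:**
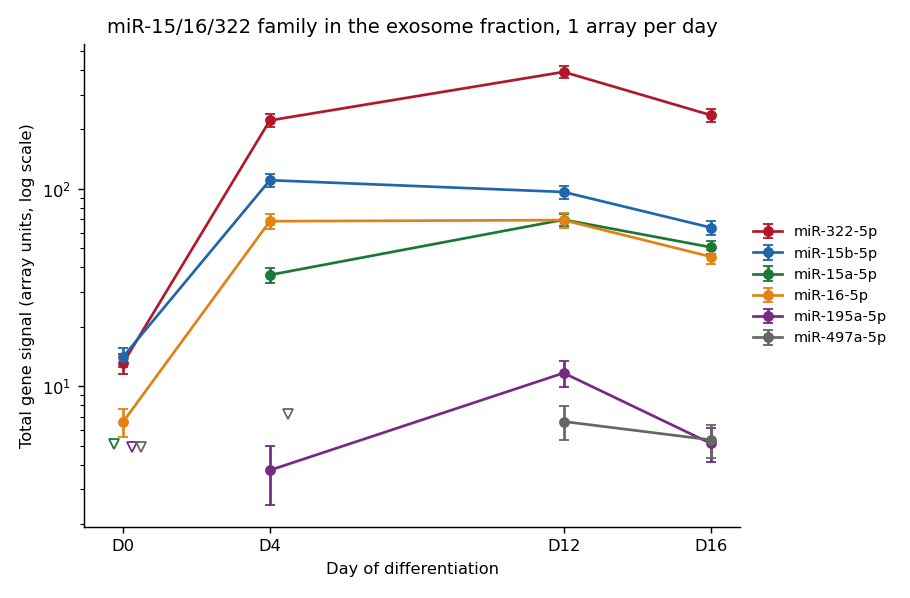
Total gene signal (array units, log scale) of each family member against the day of differentiation, with 1 array per day and bars for the technical error given by the software. Open triangles mark members that were not detected, drawn at the largest signal that would have gone undetected. MiR-322-5p was highest on D12 (392), miR-15b-5p on D4 (111), and miR-195a-5p and miR-497a-5p stayed below 12.

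The D0 array is the denominator of all ratios to D0 and was the least precise. The median coefficient of variation between spots of a probe was 21.1% on D0 against 7.19 to 8.07% on the other arrays, and no spot was saturated. On D0 the members' spots on the right side of the array were brighter than those on the left side, by 1.29 times for miR-16-5p, 1.44 for miR-15b-5p, 1.53 for miR-322-5p and 2.25 for miR-15a-5p. MiR-195a-5p and miR-497a-5p, whose D0 spots were near background, were at 2.76 and 3.81. For all 6 members this right to left ratio lay between 0.816 and 1.17 on the later arrays. Later arrays were also brighter in general. Over the miRNAs detected on both days, the median ratio was 2.47 for D4/D0 (317 miRNAs), 1.91 for D12/D0 (297) and 1.32 for D16/D0 (289), and members are compared with these medians below.

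Among the members detected on D0, miR-322-5p differed most from its own D0 value. Its total gene signal was 13.1 ± 1.51 on D0, 222 ± 16.1 on D4, 392 ± 28.3 on D12 and 237 ± 17.2 on D16. D0 was lowest and D12 highest, and the total gene signals of D4 and D16 did not differ beyond their error (D16/D4 1.06 ± 0.11). With the effective spot size divided out D16/D4 was 1.38, and by the mean of spots it was 1.36. The ratio to D0 was 17.0 ± 2.32 on D4, 30.0 ± 4.09 on D12 and 18.1 ± 2.48 on D16, the third largest ratio among the miRNAs detected on both days at each of these days. On D12 this ratio was 15.7 times the median of all miRNAs. The place of D16 depended on the scaling, since D16/D4 was 2.00 after division of each array by a 75th percentile, as described further on.

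MiR-15b-5p was at 14.1 ± 1.57 on D0, 111 ± 8.40 on D4, 96.5 ± 7.5 on D12 and 63.7 ± 5.04 on D16. It was lowest on D0 and highest on D4. D4 and D12 lay within 2 technical errors of each other (D12/D4 0.872 ± 0.095), and D16 was below both without scaling but level with D4 after 75th percentile scaling (D16/D4 1.08). Its ratios to D0 were 7.87 ± 1.06, 6.86 ± 0.931 and 4.53 ± 0.619 in the order of the days, or 3.59 times the median of all miRNAs on D12.

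For miR-16-5p the signal was 6.59 ± 1.07 on D0, 68.6 ± 5.89 on D4, 69.5 ± 5.94 on D12 and 45.4 ± 3.94 on D16. D4 and D12 could not be separated (D12/D4 1.01 ± 0.12), and D16 was lower than both without scaling, though above D4 after 75th percentile scaling (D16/D4 1.24). The D0 value rests on 1 of the 2 probes, because the other was at 2.30 times its error and was left out of the sum. With that probe left out on every day, the ratios to D0 were 8.30 ± 1.59 on D4, 8.44 ± 1.61 on D12 and 5.50 ± 1.06 on D16, instead of 10.4 ± 1.91, 10.6 ± 1.93 and 6.89 ± 1.26.

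MiR-15a-5p was not detected on D0. Its 2 probes there were at 2.84 and 2.22 times their errors, just under the threshold, and a summed signal up to 5.12 would have gone undetected. It was at 36.7 ± 3.10 on D4, 69.8 ± 5.19 on D12 and 50.7 ± 3.80 on D16. In unscaled total gene signal all 3 later days differed from each other by more than their errors. By the mean of spots, however, D16/D12 was 0.925, and the spots of both probes overlapped between these 2 days. After 75th percentile scaling D12 and D16 were close to each other (D16/D12 1.05), and D16/D4 was 2.60 instead of 1.38. Over the undetected limit on D0 the unscaled total gene signal was 7.17 times as high on D4, 13.7 times on D12 and 9.91 times on D16. These values leave out the error of the later day and hold on that scale alone. After 75th percentile scaling they were 1.68, 4.15 and 4.38. The mean of all spots on D12 was 12.8 times that on D0, or 8.38 times on the right side of the array.

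The cluster on chromosome 11 was dim. MiR-195a-5p was not detected on D0 (limit 4.93), and was at 3.76 ± 1.25 on D4, 11.7 ± 1.78 on D12 and 5.14 ± 1.02 on D16. The sum on D12 held 2 probes and those on D4 and D16 only 1. For the probe detected on all 3 days, D12/D4 was 2.00 ± 0.753 and D16/D12 was 0.684 ± 0.182, so that these neighbouring days lay within 2 errors of each other. On D4 that probe was at 3.01 times its error and none of its 15 spots was well above background. On D12 the unscaled signal of miR-195a-5p was 2.37 times its D0 limit, without counting the D12 error. After 75th percentile scaling it was 0.720 times the D0 limit and gave no bound above 1. MiR-497a-5p was not detected on D0 (limit 4.94) or D4 (limit 7.27), and was at 6.63 ± 1.28 on D12 and 5.35 ± 1.03 on D16 by 1 of its 2 probes, days that did not differ beyond error. Its unscaled signal on D12 was 1.34 times the D0 limit but within 2 technical errors of it, and 0.408 times that limit after 75th percentile scaling. No bound above 1 can be given against D0 or D4.

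**Figure D2:**
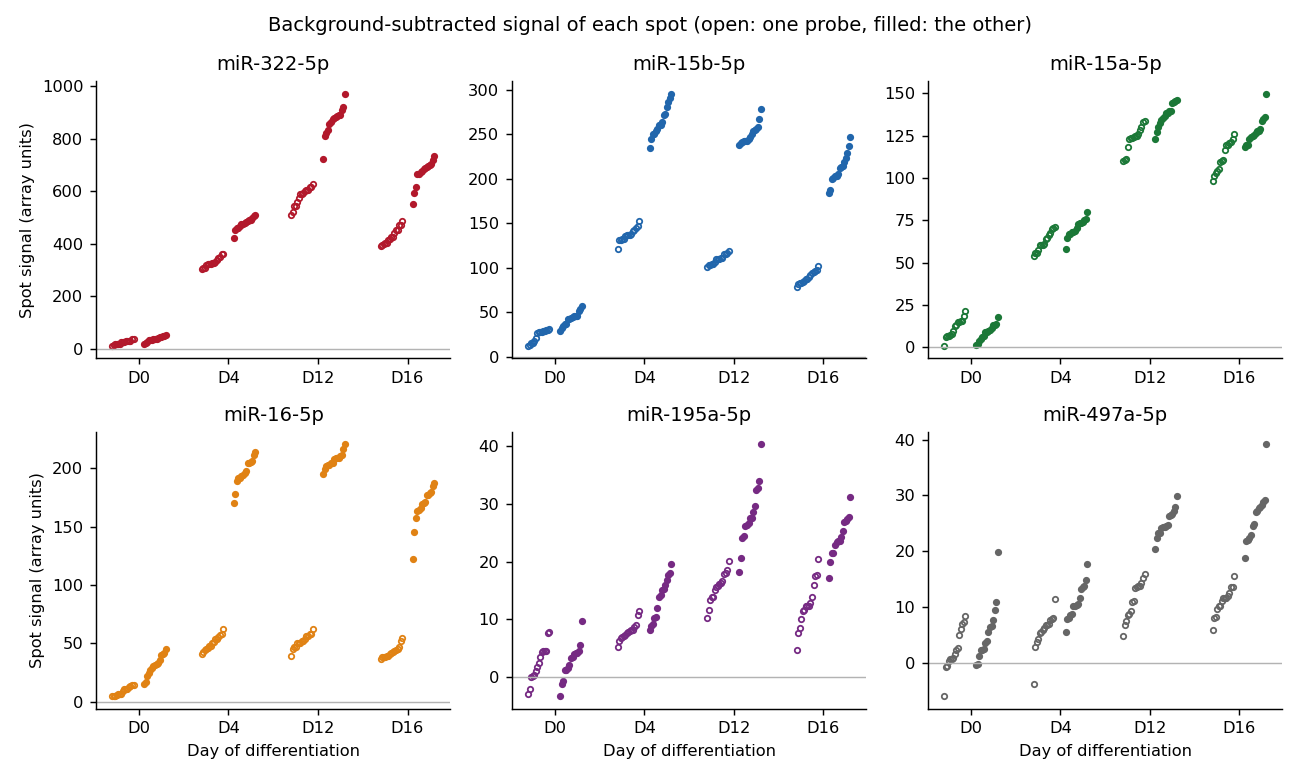
Background-subtracted signal of every spot (array units, linear scale, 1 panel per member) by day, 15 spots for each of 2 probes, sorted by signal within a group. For miR-322-5p and miR-15a-5p no spot on D12 was as low as the brightest spot of the same probe on D4, while spots of miR-16-5p overlapped between these days and those of 1 probe of miR-497a-5p overlapped between D0 and D12.

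The spots show how far this picture holds within an array. For the probe of miR-322-5p that was brighter on each array, the spots ranged from 19.3 to 50.7 on D0 with a median of 37.3, from 420 to 511 on D4 with a median of 479, from 722 to 972 on D12 with a median of 879, and from 551 to 736 on D16 with a median of 684. The 4 days did not overlap except for D12 and D16. For 5 of the 6 members every spot of both probes was brighter on D12 than any spot of that probe on D0, the exception being miR-497a-5p. Among all miRNAs detected on either of these days the share was 27.2%. Between D0 and D4 it was 4 of the 5 members detected, against 33.8% of all miRNAs. Spots of 1 array are no replicates of a day.

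All 3 members detected at both D0 and D12 were above 2-fold at each later day, but so were 62.1% of all miRNAs detected on both days on D4, 47.8% on D12 and 31.1% on D16. The members' median ratio was 10.4 on D4, 10.6 on D12 and 6.89 on D16. When each array was divided by the 75th percentile over those miRNAs that all 4 arrays detected, 6.62% of all miRNAs were above 2-fold on D4, 10.1% on D12 and 11.4% on D16. On this scale miR-322-5p was at 4.00, 9.11 and 8.0 over D0, miR-16-5p at 2.44, 3.21 and 3.04, and miR-15b-5p at 1.85, 2.09 and 2.00, in the order D4, D12 and D16. All 3 members thus passed 2-fold on D12 and D16, with miR-15b-5p at the threshold, and miR-15b-5p did not pass it on D4. The other 3 members of the 6 were not detected on D0. Of all miRNAs detected on D12, 26.8% were not detected on D0.

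**Figure D3:**
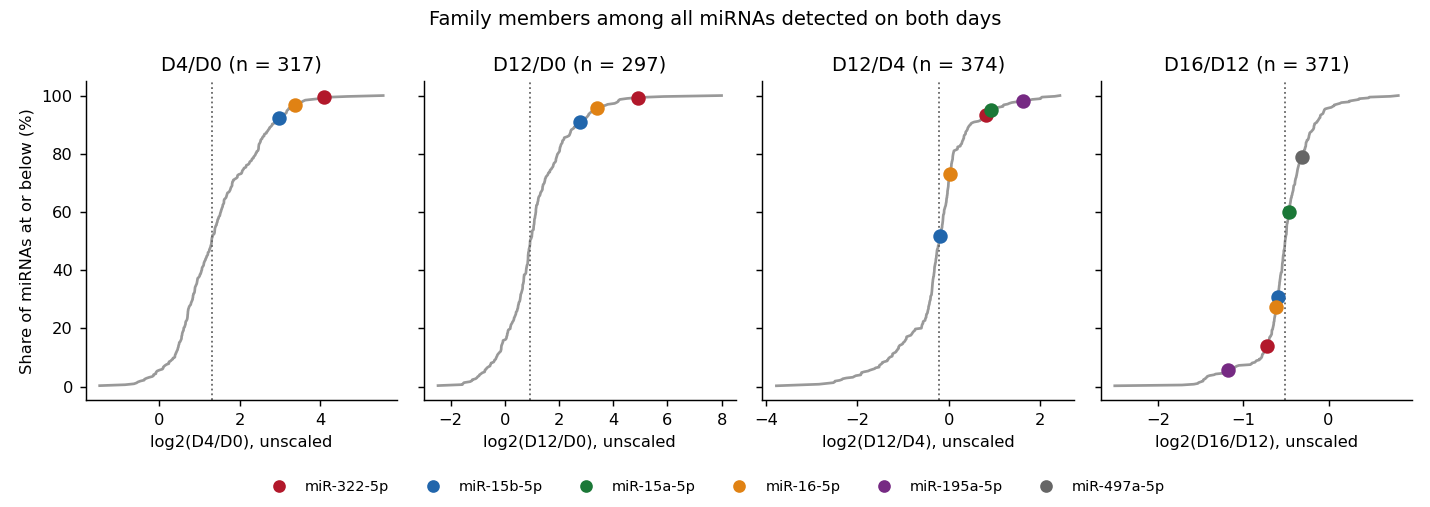
Cumulative share of miRNAs (%) by the log2 ratio of unscaled signals between 2 days, over the miRNAs detected on both (grey line, dotted line at the median), with family members as coloured points. On D12/D0 the 3 members lie to the right of the median log2 ratio of 0.94, and from D12 to D16 the 6 members lie on both sides of the median of -0.51.

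The comparison of D12 with D4 leaves out the uneven D0 array. The median ratio D12/D4 over 374 miRNAs was 0.865, and 29.4% of them were above 1. Of the 5 members detected on both days 4 were above 1, miR-16-5p among them by less than its error. MiR-15a-5p of the chromosome 14 cluster was at 1.91 ± 0.21 and miR-322-5p of the X cluster at 1.76 ± 0.18. MiR-15b-5p of the chromosome 3 cluster was at 0.872 ± 0.095, close to the median of all miRNAs. Every spot of both probes was brighter on D12 than on D4 for 2 of the 6 members, miR-15a-5p and miR-322-5p, against 4.80% of all miRNAs detected on either day.

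A factor common to an array cancels when members are compared with each other. The log2 difference in D12/D4 between miR-15a-5p and miR-15b-5p, which share 18 of 22 bases, was 1.13 ± 0.23, or 5.0 times its technical error. MiR-16-5p, made by both clusters, lay between them at 1.01 ± 0.12, lower than miR-15a-5p by 0.91 ± 0.24 on the log2 scale and above miR-15b-5p by 0.22 ± 0.23, which is within error. MiR-322-5p exceeded miR-15b-5p by 1.01 ± 0.22 and miR-16-5p by 0.80 ± 0.23, and differed from miR-15a-5p by -0.11 ± 0.22, within error. MiR-195a-5p, at 2.00 ± 0.753 over its shared probe, was too dim to be placed apart from miR-16-5p (difference 0.98 ± 0.57).

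**Figure D4:**
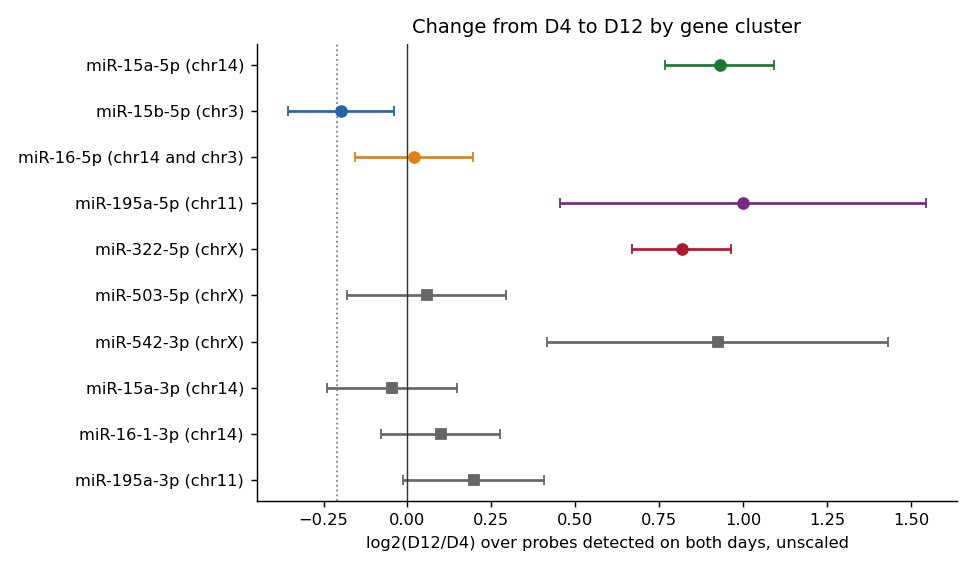
log2 of the D12/D4 ratio of unscaled signals over the probes detected on both days, for family members (circles) and for other miRNAs of the same gene clusters (squares), with the technical error as bars and the median of all miRNAs as a dotted line. MiR-15a-5p and miR-322-5p lie near 1 (0.93 and 0.82), miR-15b-5p at -0.20 and miR-16-5p at 0.02.

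Over the whole course from D0 to D12, miR-322-5p exceeded miR-16-5p by 1.51 on the log2 scale (ratios 30.0 and 10.6), and by 1.83 ± 0.34 when miR-16-5p was taken over its shared probe. It exceeded miR-15b-5p by 2.13 ± 0.28. MiR-16-5p and miR-15b-5p, which can come from the same primary transcript, differed by 0.30 ± 0.34 over the shared probe, within error.

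From D12 to D16 all 6 members were lower in unscaled total gene signal, as were 95.7% of all 371 miRNAs detected on both days, whose median ratio was 0.703. The effective spot size was also smaller on D16. With it divided out, miR-497a-5p was at 1.02 and the other members between 0.557 and 0.919. After division by the 75th percentile miR-15a-5p (1.05) and miR-497a-5p (1.17) were above 1 and the other 4 between 0.640 and 0.960. In unscaled total gene signal the members ranged from 0.440 ± 0.110 for miR-195a-5p (0.684 ± 0.182 over its shared probe) to 0.807 ± 0.220 for miR-497a-5p. MiR-322-5p was at 0.604 ± 0.062 and miR-15a-5p at 0.726 ± 0.077, and over shared probes no pair of members differed by more than 1.24 technical errors.

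Partners from the same hairpins gave other values. Of the 7 opposite arms on the array, 3 were detected on every day and the other 4 on none. MiR-15a-3p, the opposite arm of miR-15a-5p, was at 9.24 ± 0.947 on D0, 14.5 ± 1.40 on D4, 14.0 ± 1.31 on D12 and 9.40 ± 0.996 on D16. Its D12/D0 ratio was 1.52 ± 0.21, below the median of all miRNAs. The unscaled total gene signal of miR-15a-5p on D12 was 13.7 times its D0 limit, and its D12/D0 ratio was 12.8 by the mean of its spots. From D4 to D12 the log2 ratio of miR-15a-5p exceeded that of miR-15a-3p by 0.98 ± 0.25. MiR-16-1-3p and miR-195a-3p were at 1.47 ± 0.18 and 1.36 ± 0.19 for D12/D0. The opposite arm of miR-322-5p, miR-322-3p, was not detected on any day.

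Of the 11 X-linked neighbours of miR-322 in the list, none was detected on D0, 4 on D4, 6 on D12 and 5 on D16. Over all 1881 miRNAs the counts were 329, 426, 406 and 380. MiR-503-5p is shown beside the family because it is the nearest neighbour and differs from the family's seed at its last base, again with bases 2 to 8 in capitals.
miR-503-5p: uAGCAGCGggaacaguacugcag
It was not detected on D0, and was at 19.1 ± 2.28 on D4, 19.9 ± 2.24 on D12 and 8.46 ± 1.22 on D16, so that D4 and D12 did not differ beyond error. The D12 signal was 4.06 times the D0 limit unscaled, or 1.23 times after 75th percentile scaling, without counting the D12 error. MiR-322-5p exceeded miR-503-5p in D12/D4 by 0.76 ± 0.28 on the log2 scale. MiR-542-3p, farther along the cluster, was at 4.12, 14.0 and 9.47 from D4 to D16 and had a D12/D4 ratio of 1.90 ± 0.67 over its shared probe. The remaining neighbours that were detected, miR-542-5p, miR-450a-5p, miR-450b-3p and miR-351-5p, did not exceed 5.50 on any day.

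MiR-103-3p and miR-107-3p carry the same 7 bases 1 position earlier, at bases 1 to 7, which are in capitals here.
miR-103-3p: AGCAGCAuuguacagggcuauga
miR-107-3p: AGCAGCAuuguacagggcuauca
MiR-103-3p was at 4.11 on D0, 67.8 on D4, 72.0 on D12 and 54.9 on D16, and miR-107-3p at 4.25, 49.4, 58.9 and 45.6. Their D12/D0 ratios, 17.5 ± 4.20 and 13.9 ± 3.27, lay between those of miR-16-5p and miR-322-5p. Like miR-16-5p, miR-103-3p was within error of its D4 value on D12 (1.06 ± 0.12).

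Among the 283 miRNAs detected on all 4 arrays, the pattern nearest to that of miR-16-5p by Euclidean distance of centred log2 signals was that of miR-199a-3p, at 0.223 over 4 days, followed by let-7a-5p (0.311) and miR-199b-5p (0.319), where the median distance was 2.07. MiR-199a-3p was at 9.25, 8.78 and 5.67 over D0 on D4, D12 and D16. For miR-322-5p the nearest were miR-26b-5p (0.378), miR-26a-5p (0.483) and let-7c-5p (0.567), with a median of 3.16. MiR-26b-5p was at 12.3, 22.6 and 16.3 over D0. In total gene signal, miR-16-5p lay farther from miR-15b-5p (0.500) and miR-322-5p (1.21) than from its 3 nearest miRNAs. MiR-15b-5p and miR-322-5p were 1.70 apart. The D0 total of miR-16-5p holds 1 probe and its later totals 2, which enlarges its ratios to D0. Over the shared probe its log2 ratio to D0 exceeded that of miR-15b-5p by 0.08 on D4, 0.30 on D12 and 0.28 on D16. By the totals these differences were 0.40, 0.62 and 0.60. Distances over shared probes were not computed. The distances given are a description over 4 arrays that share their brightness differences.

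MiRNAs known as markers of several cell types were set beside the family, and miR-16 is abundant in red blood cells too. Over all miRNAs on the array, 329 were detected on D0, 426 on D4, 406 on D12 and 380 on D16. Of those detected on D12, 26.8% were not detected on D0. Of the 4 red blood cell miRNAs, 1 was detected on D0, 3 on D4, 4 on D12 and 3 on D16, and their summed signal was 9.40, 468, 2528 and 1649. MiR-451a alone was at 9.40 ± 1.37, 443 ± 33.8, 2400 ± 182 and 1559 ± 119. Of 5 miRNAs of leukocytes, endothelium and liver, 0, 2, 4 and 4 were detected, with summed signals of 0, 30.2, 137 and 117, and miR-150-5p, the lymphocyte miRNA, was not detected on any day. None of the 3 miRNAs of striated muscle was detected on any day. Of 6 miRNAs of adipocytes, which include miR-103-3p and miR-107-3p, 3, 5, 6 and 6 were detected, with summed signals of 11, 176, 231 and 172. The source of these marker miRNAs in medium of 3T3-L1 cells, and any part of other cells in the family's values, was not tested.

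**Figure D5:**
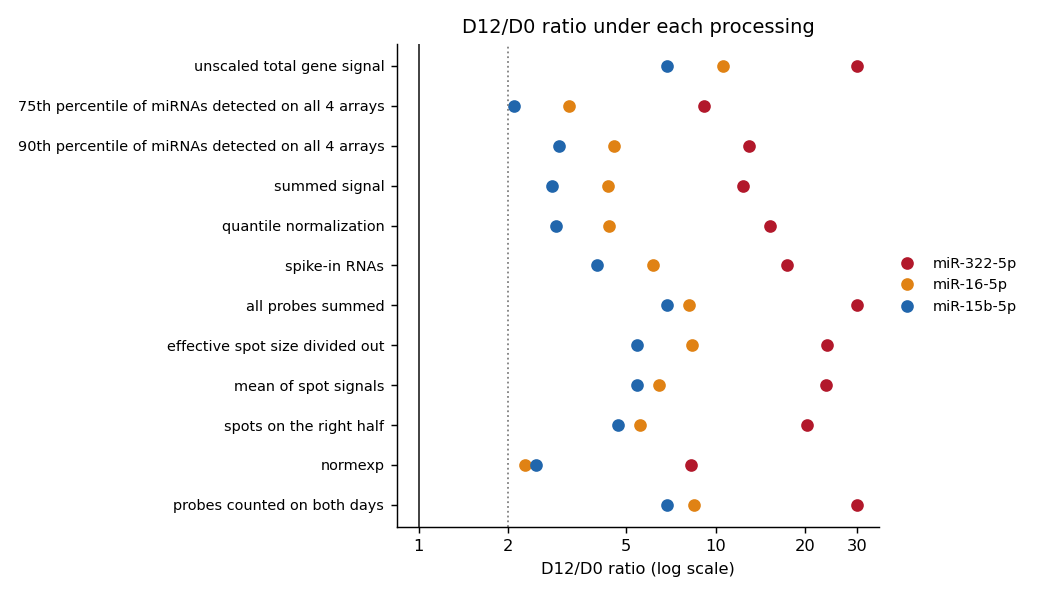
D12/D0 ratio (log scale) of the 3 family members detected on both days under each way of processing, with a solid line at 1 and a dotted line at 2. MiR-322-5p is farthest to the right under every processing, between 8.23 and 30.0, and all points lie above 2.

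The size of the ratios to D0 depended on the scaling and the background correction, as the plot of the ratio under each processing shows. MiR-322-5p ranged from 8.23 with normexp background correction to 30.0, miR-16-5p from 2.28 to 10.6 and miR-15b-5p from 2.09 to 6.86. All 3 stayed above 2 in every setting shown. Normexp was run with an offset of 50 added to every spot, which by itself draws ratios of dim signals toward 1. The D12/D4 ratio ranged from 1.5 to 2.47 for miR-15a-5p and from 1.67 to 2.49 for miR-322-5p. For miR-15b-5p it ranged from 0.872 to 1.14 and passed to above 1 with percentile, summed signal and quantile scaling, so that the direction of its small difference depends on the scaling.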

How the data were processed

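The authors deposited the output of Agilent Feature Extraction 11.0.1.1 for 4 single-colour Cy3 arrays as intensity values, background-subtracted and not scaled between arrays. The deposited total gene signal sums the probes over 3 times their error, and is 0.1 where none is. The methods and the labels differ in how many experiments were pooled per day. Total signal includes an effective spot size, estimated at D4 and D12 and a default at D0 and D16.

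Here signals were divided by those of D0, as the methods describe, or of another day. No scaling between arrays was applied before division, and whether the study applied one is not given in the sources used here. The ratios to D0 that the study lists for miR-322-5p, miR-16-5p and miR-15b-5p are smaller than the unscaled ones given here. Errors of ratios were propagated from the technical errors. A miRNA not detected was bounded by 3 times the error summed over its probes. A later signal over this limit was given without the error of the later day. Named were all members, other miRNAs with their seed, the partner, shifted seed and marker lists, and the 3 miRNAs nearest to miR-16-5p and to miR-322-5p. Members and lists were chosen with earlier results of these data known. MiR-195b and miR-497b had been listed as neighbours of miR-497a and miR-195a, but RefSeq places Mir195b on chromosome 2, and neither was detected on any day. Python 3.11.15, numpy 2.4.6, pandas 2.3.3, and limma 3.58.1 in R 4.3.3 (normexp, offset 50) were used, and scaling was tested on simulated data.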

Additional observations from a re-analysis of the deposited data

How the results depend on the processing

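MiR-322-5p, miR-16-5p and miR-15b-5p, the members detected on D0, had ratios to D0 above 1 under the alternatives run, but the size of the ratios differed. For the members not detected on D0 the D12 signal over the D0 limit depended on scaling, from 13.7 to 4.15 for miR-15a-5p, 2.37 to 0.720 for miR-195a-5p and 1.34 to 0.408 for miR-497a-5p with the 75th percentile. The median D12/D0 ratio of the members detected on both days was 10.6 without scaling. It was 3.21 with the 75th percentile and 4.55 with the 90th, 4.33 with the summed signal, 4.39 with quantile normalization and 6.13 with spike-in RNAs. It was 8.15 with all probes summed, 8.33 with the effective spot size divided out, 6.44 with the mean of spots, 5.56 with spots on the right side of the array, 2.48 with normexp and 8.44 with probes counted on both days. With undetected members at their unscaled bound, 5 members instead of 3 were above 2-fold at D12. The added members were miR-15a-5p (13.7) and miR-195a-5p (2.37), and after 75th percentile scaling only miR-15a-5p (4.15) of these stayed above 2. The log2 difference between miR-322-5p and miR-16-5p in D12/D0 was 1.51, and 1.88 with all probes summed, 1.87 with the mean of spots, 1.86 with spots on the right side and 1.85 with normexp. The cause was not tested. A further call was lost for miR-15b-5p at D4 with the 75th percentile (1.85). Another was lost for miR-16-5p at D16 with normexp and its offset of 50 (1.97).

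Of 275 recomputed ratios of single members, 194 moved by more than their technical error and 81 did not. Scaling by the 75th percentile over all miRNAs was not run, since this percentile is the undetected value of 0.1 on every array. Quantile normalization gave 36.6 for D12/D4 of miR-195a-5p, whose D4 signal lies near the undetected values. No paired analysis was possible because each day has 1 array, and no array could be left out. Signals within a few errors of background limit miR-195a-5p and miR-497a-5p on all days, and miR-15a-5p and miR-16-5p at D0.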
